A study of Drosophila melanogaster with 2 samples.

Results

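The regions described here are peaks of the transcription factor Huckebein that lie inside a gene, in no annotated exon, and more than 500 but no more than 5000 bp from the nearest annotated transcript start. They were chosen by position alone: the summit of each peak in the list that combines both replicates was placed on the Ensembl annotation, with transposable elements left out, and 1786 of the 7220 peaks met the rule (24.7%, 95% exact binomial interval 23.7 to 25.7). The assay, chromatin immunoprecipitation followed by sequencing, used whole embryos of Drosophila melanogaster, 0 to 24 h old, of the strain hkb-GFP, in which an insertion that targets hkb gives a fusion of Huckebein with enhanced green fluorescent protein. Sonicated fragments of 200 to 800 bp were precipitated with an anti-GFP antibody, and the 2 biological replicates form 1 group with no second condition. The sex of the embryos was not collected, all tissues and stages of embryonic life are mixed in each replicate, and no control precipitation was used here, so binding of the tagged protein and signal that arises without it cannot be told apart. All values below describe peaks of these libraries: shares carry 95% exact binomial intervals that cover counting error over peaks, genes or bases only, peaks are not replicates, and no test between conditions was possible.

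Huckebein is a zinc finger protein of the Sp and Kruppel-like type that acts downstream of the receptor Torso at both ends of the blastoderm embryo, where it limits the mesoderm and takes part in forming the endoderm, and it acts again later in the nervous system and the salivary gland. Intron sequence close to a transcript start is one of the places where enhancers and alternative promoters of fly genes are found, above all in long first introns.

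The sequences at the strongest summits show the feature that most of these regions share, a core rich in A and T. Each line gives the summit base and 50 bp to either side, on the plus strand of the RefSeq Release 6 assembly, which has the same chromosome arms and arm lengths as the dm6 assembly of the peak lists. Capitals mark runs of at least 8 bases that hold only A and T.
CG11050, intron 2, 2L:6612654-6612754: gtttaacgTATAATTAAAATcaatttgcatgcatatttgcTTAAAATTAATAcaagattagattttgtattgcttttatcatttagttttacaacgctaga
CG32772, intron 1, X:4910325-4910425: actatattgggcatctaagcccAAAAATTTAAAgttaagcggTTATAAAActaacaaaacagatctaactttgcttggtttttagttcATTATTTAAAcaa
Trl, intron 2, 3L:14759475-14759575: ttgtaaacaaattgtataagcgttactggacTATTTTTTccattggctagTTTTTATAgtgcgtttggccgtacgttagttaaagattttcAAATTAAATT
Tlk, intron 1, X:3742164-3742264: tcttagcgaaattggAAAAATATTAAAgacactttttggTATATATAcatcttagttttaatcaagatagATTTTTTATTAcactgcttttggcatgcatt
chif and Hyls1, intron 1, 2L:16351194-16351294: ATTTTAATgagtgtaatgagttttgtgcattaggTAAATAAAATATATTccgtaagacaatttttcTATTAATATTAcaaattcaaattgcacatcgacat
NFAT, intron 1, X:13640459-13640559: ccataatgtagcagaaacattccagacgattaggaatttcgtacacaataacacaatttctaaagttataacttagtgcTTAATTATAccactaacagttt
CG3726, intron 1, X:5918869-5918969: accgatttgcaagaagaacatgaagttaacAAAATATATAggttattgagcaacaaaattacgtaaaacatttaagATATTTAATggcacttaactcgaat
CG9663, intron 1, 2L:3302131-3302231: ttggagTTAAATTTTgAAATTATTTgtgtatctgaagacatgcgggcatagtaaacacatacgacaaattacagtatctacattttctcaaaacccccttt
These are the 8 members of X, 2L, 3L and 3R with the highest signal value, the authors' own score for a peak. Their GC content ran from 22.8% in CG11050 to 32.7% in CG9663. It was well below that of the member's own flanks 500 bp away in CG11050 (45.5%), Trl (29.7% against 47.0%) and chif (23.8% against 41.1%). It equalled the flanks in NFAT (30.7%), and among the 20 strongest members of all arms 17 were below their flanks. For contrast, the weakest peak that overlapped no stronger one lay in schlank, which encodes a ceramide synthase.
schlank, X:6263957-6264057: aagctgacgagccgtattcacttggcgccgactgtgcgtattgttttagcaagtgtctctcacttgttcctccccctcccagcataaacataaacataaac
Its signal value was 28.4, its GC content was 47.5% against 41.1% in its flanks, and its longest run of A and T was 5 bases. It was chosen after its value was seen, and it does not stand for all weak members. Over the 261 weakest members that overlapped no stronger peak, the quartiles of GC content were 30.7% and 45.5%, so schlank was above the upper one. A weak member in CHES-1-like, with a signal value of 45.1, had 31.7% against 29.7% in its flanks and a run of 12 bases.

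The strongest of these regions were found in both replicates with the same order of magnitude. The combined values are of peaks called on both replicates together, so they are not independent of the replicate values. The leading peak lay in the second intron of CG11050 at 2L:6612423-6612971, 1017 bp from a start of that gene, with a combined signal value of 2633 and with 1511 and 1107 in replicates 1 and 2. It was the peak of rank 2 in the whole list, and its summit lay 64 bp from an exon in an exon-free stretch of only 140 bp. CG32772 followed with a combined value of 1466 and 846 and 609 in replicates 1 and 2, 1273 bp from its start. Replicate 1 had the higher value in both cases, as it did in all 20 of the strongest members.

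Some of the 20 strongest members lay in genes that encode regulators of chromatin or transcription. The peak in Trl, which encodes the GAGA factor, a protein that binds GA-rich promoter and enhancer sequence, had a combined value of 1243 and 690 and 544 in replicates 1 and 2, at 3L:14759330-14759707 in the second intron. A peak 575 bp upstream of the start of HmgZ, in introns shared by HmgZ and HmgD, both of which encode HMG-box proteins that bend DNA, had 1273, 736 and 538 in the same order of lists. The peak in Adf1, which encodes a transcription activator first studied on the Adh gene, had 1043, 595 and 464. In each of these, replicate 1 had the higher value of the pair.

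Other hosts among the 20 encode kinases and signalling proteins. Tlk, which encodes the Tousled-like kinase that acts in chromatin assembly, had a combined value of 1242 and 672 and 575 in replicates 1 and 2 at X:3742042-3742383. The peak at chif, whose product activates the replication kinase Cdc7, lay 961 bp upstream of a start of that gene and also inside Hyls1, a gene for a centriole protein, with 1176, 652 and 511. The peak in for, the foraging gene for a cGMP-dependent protein kinase, had 852, 486 and 373, and that in norpA, the phospholipase C of phototransduction, had 839, 506 and 330. Raf, the kinase that acts between Torso and the terminal genes in the pathway upstream of Huckebein, closed the set of 20 with 817, 454 and 365, in its second intron 2247 bp from a start. The peak in edl, which encodes a regulator of ETS factors in receptor tyrosine kinase signalling, had 831, 486 and 332. NFAT, a homologue of the calcium-regulated NFAT factors, had 1104 in the combined list, and Reph, where the summit had more G and C (34.7%) than its flanks (27.2%), had 902. Further hosts were CG12769, CG3726, CG9663, CG31635, CG9837 and CG9135, and their combined values ran from 1342 for CG12769 down to 820 for CG9135.

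**Figure D1:**
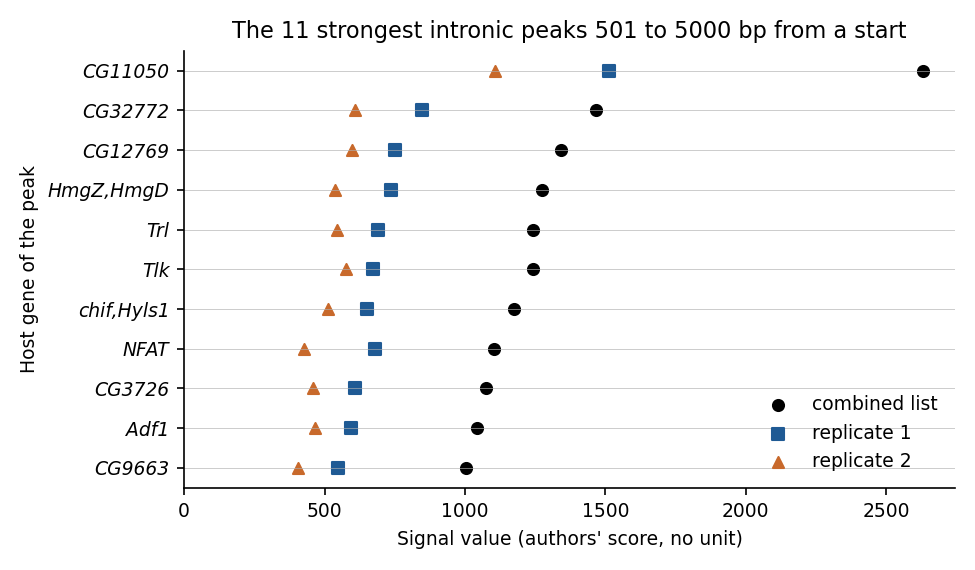
Signal value (horizontal axis, the authors' score with no unit) of the 11 strongest intronic peaks, 1 row per host gene, with circles for the combined list, squares for replicate 1 and triangles for replicate 2. Replicate 1 lies above replicate 2 in all 11 rows, and CG11050 stands apart at 2633 from CG32772 at 1466.

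As a set, the 20 strongest members lay close to starts of their own host genes. Their distances ran from 575 to 2461 bp with a median of 1202.5 bp, and in all 20 the nearest start belonged to a host gene. Of the 20 summits, 17 were in the first intron of a host transcript and 14 were downstream of the nearest start. In the plot of signal values for the strongest members, the values of the 2 replicates fell along with those of the combined list. The combined list was called on both replicates together, so this is partly built in.

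Over all 1786 members, the signal value ranged from 2.01 to 2633 with a median of 113 and quartiles of 80.8 and 181. Peaks within 500 bp of a start had a median of 107, intronic peaks farther than 5000 bp from one had 101, and intergenic peaks up to 5000 bp from a start had 110, so the classes lay close together. The lowest values belonged to peaks that overlapped a stronger peak. All 60 members with a signal value under 20 overlapped a stronger peak of the list, and their summits lay 199 to 262 bp from the nearest other summit. In total 107 members (5.99%) overlapped a stronger peak, against 6.80% in the whole list. The commonest width of the list, 384 bp, was that of 1375 members (77.0%), so in those width does not measure the extent of a site. In the strongest quintile by signal value 32 of 357 members (8.96%) had this width. Among the 20 strongest members 0 had it, and their widths ran from 294 to 549 bp.

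Replicates held about the same share of these regions as of the list as a whole. A member counted as held by a replicate when it shared at least 1 bp with a peak of that replicate's own thresholded list. Both replicates held 912 members (51.1%, 48.7 to 53.4), replicate 1 alone held 336 (18.8%, 17.0 to 20.7), replicate 2 alone held 161 (9.01%, 7.73 to 10.4), and neither held 377 (21.1%, 19.2 to 23.1). In the whole list 47.9% were held by both and 22.2% by neither, and among intronic peaks beyond 5000 bp the shares were 41.5% (38.3 to 44.8) and 26.5% (23.7 to 29.5). Of the 377 members that neither list held, 374 overlapped a candidate peak in the ranked lists of both replicates, with median signal values of 42.6 in replicate 1 and 33.6 in replicate 2.

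Support by the replicates followed the combined signal value closely. That value is drawn from both replicates, so such a link is partly built in. In the strongest quintile, from 206 to 2633, both replicates held 354 of 357 members (99.2%), and in the next quintile they held 322 of 357 (90.2%). The share was 47.6% in the third, 6.16% in the fourth and 12.3% in the fifth. The share held by neither was 0 of 357 in the first and second quintiles, which allows a share of up to 1.03%, 5.60% in the third, 39.5% in the fourth and 60.3% in the fifth. The rise from the fourth to the fifth quintile in the share held by both came with overlapping peaks: 97 of the 358 weakest members overlapped a stronger peak, and of the 261 that did not, both replicates held 5 (1.92%).

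**Figure D2:**
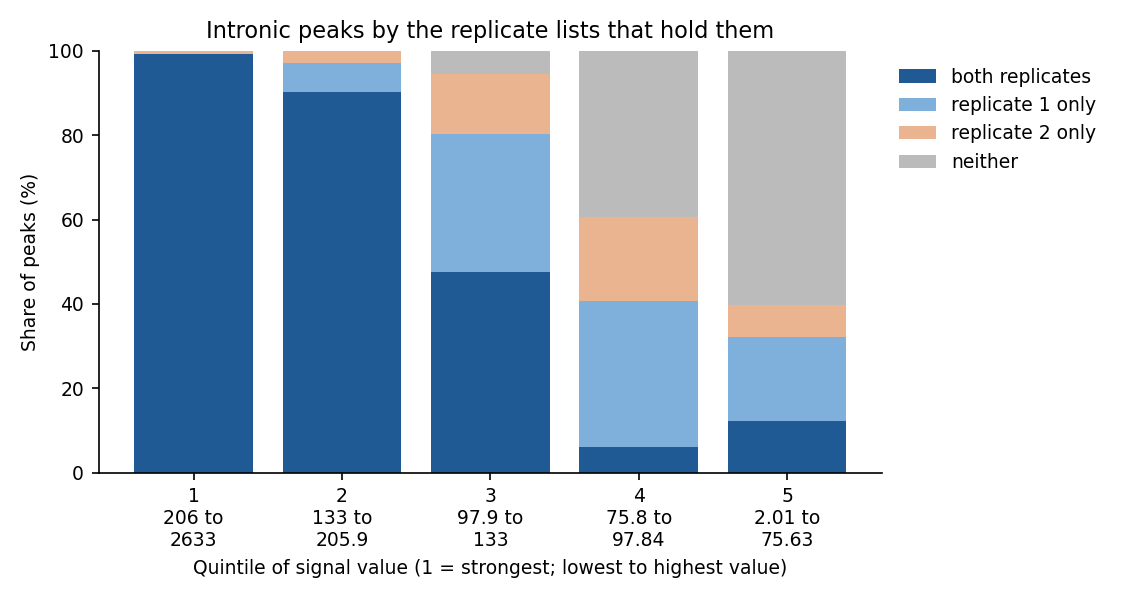
Share of members (vertical axis, %) held by both replicates, by 1 of them or by neither, in quintiles of the combined signal value from strongest (1) to weakest (5), with the range of values under each bar. Both replicates held 99.2% of the first quintile and 6.16% of the fourth, and neither held 60.3% of the fifth.

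Where both replicates held a member, their signal values ranked alike. Over the 912 members the Spearman correlation was 0.836, which describes these 2 libraries and the peaks they share and carries no p-value. It was 0.887 over 1640 peaks within 500 bp of a start, 0.814 over 376 intronic peaks beyond 5000 bp and 0.778 over 327 intergenic peaks up to 5000 bp from a start. Replicate 1 had the higher value in 762 of the 912 members, with a median of 102 against 80.7 in replicate 2. Whether the score has 1 scale in both lists is not stated in the labels or files.

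**Figure D3:**
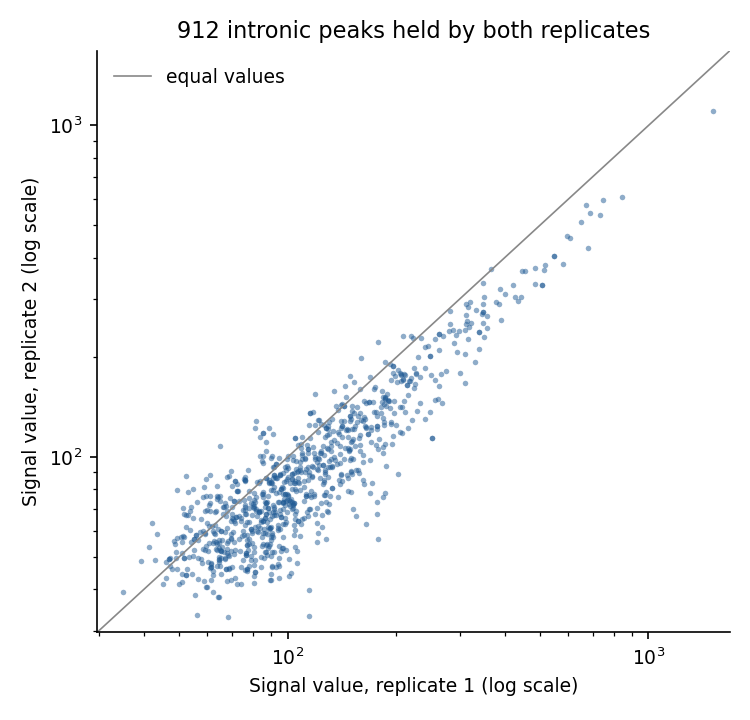
Signal value in replicate 1 (horizontal axis) against replicate 2 (vertical axis), both on log scales, for the 912 members held by both; the line marks equal values. Most points, 762 of 912, lie below the line, and the strongest member stands at 1511 and 1107.

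A few strong members rested on 1 replicate. The peak in CG5953 at 2L:16521409-16521792 had a combined value of 266 and was held by replicate 2 alone, at 110. Replicate 1 had a candidate there with 150 that was not in its thresholded list. The peak in side-IV, which encodes a cell surface protein of the immunoglobulin superfamily, had 221 in the combined list and 111 in replicate 2, with no candidate of replicate 1. CG5326, with 182 in the combined list, was held by replicate 1 at 106, and replicate 2 had a candidate of 81.7. The strongest members that neither thresholded list held were in fru, a gene for sex-specific zinc finger proteins, with 131, and in cnc, a gene for a bZIP factor of the head, with 119. These members were named after their values were seen.

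Within the window the rule allows, the regions were denser near starts. Sequence that met the position rule came to 24.5 Mb, and members fell on it at 72.8 per Mb (69.4 to 76.2). The density was 109 per Mb (95.4 to 123) between 500 and 750 bp from the nearest start, 90.2 (80.9 to 100.3) between 1000 and 1500 bp, 65.0 (55.9 to 75.1) between 2000 and 2500 bp and 47.5 (37.6 to 59.2) between 4500 and 5000 bp. Beyond 5000 bp, intronic peaks came to 32.0 per Mb (29.9 to 34.2). Intergenic peaks over the same range of distance were sparser, at 39.5 per Mb (36.6 to 42.7) in all, at 62.1 (up to 76.2) in the first of these bins and at 28.9 (19.9 to 40.6) in the last. Their intervals and those of the intronic peaks did not overlap in the first bin and did in the last.

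First introns carried more of the regions than other introns at each distance. In total 1335 members (74.7%, 72.7 to 76.7) lay in the first intron of some host transcript, while first introns made up 57.4% of the eligible sequence, and 833 members (46.6%) lay in the first intron of every host transcript that spans the summit. First introns held 127 members per Mb (115 to 140) between 500 and 1000 bp from a start and 66.7 (58.8 to 75.5) between 3000 and 5000 bp. Other introns held 58.2 (46.1 to 72.6) and 39.1 (33.2 to 45.8) at the same distances. The median signal value was 115 in first introns and 107 in the others, and both replicates held 53.0% and 45.5%.

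**Figure D4:**
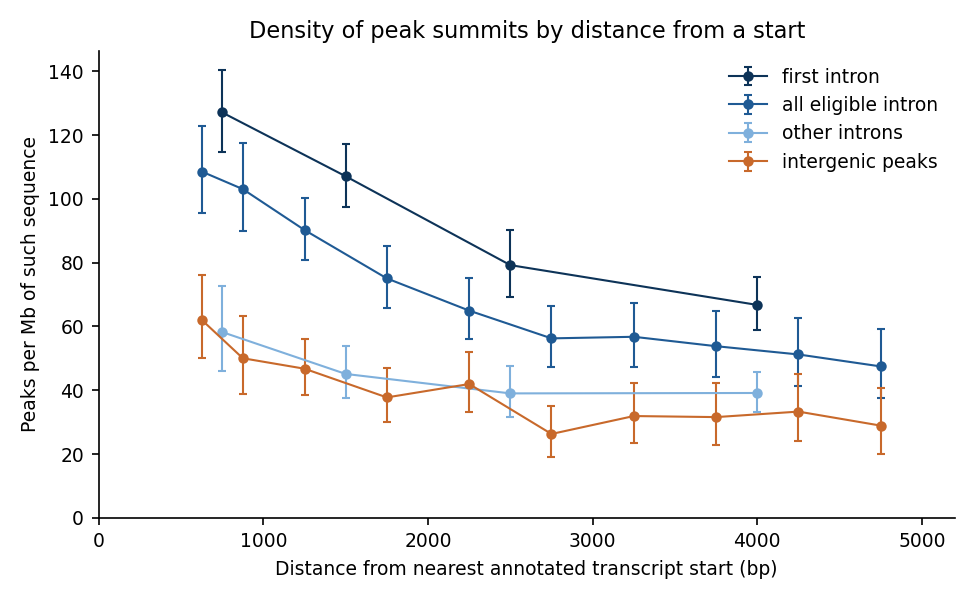
Peak summits per Mb of sequence (vertical axis) by distance from the nearest annotated start in bp (horizontal axis), for all eligible intron sequence, first introns, other introns and, for comparison, intergenic peaks; bars are 95% exact binomial intervals over bases. The first intron line runs from 127 to 66.7 per Mb and lies above the line of other introns, which runs from 58.2 to 39.1.

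Few summits lay next to an exon. Sequence within 100 bp of an exon held 18.6 members per Mb (14.2 to 24.0), sequence between 100 and 250 bp away held 66.4 (56.0 to 78.1), sequence between 500 and 1000 bp away held 98.6 (90.0 to 108) and sequence over 2000 bp away held 62.0 (55.8 to 68.7). The leading peak in CG11050, at 64 bp, was among the 60 members in the first of these bands. Stretches free of exons of 2000 to 5000 bp held 90.3 members per Mb (83.2 to 97.9), against 61.0 (55.2 to 67.3) for stretches up to 2000 bp and 52.6 (41.4 to 65.8) for those over 20000 bp.

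The start nearest to a member was usually one of the host gene itself. This held for 1395 members (78.1%, 76.1 to 80.0), against 65.6% of eligible positions taken every 100 bp. A member lay upstream of the nearest start, with that start belonging to the host, in 374 cases (20.9%, 19.1 to 22.9), against 14.3% of positions. Such a summit sits inside a longer transcript and upstream of a shorter one of the same gene, as the peak of chif does. The share downstream of the nearest start was 65.9% (63.7 to 68.1), close to the 65.5% of eligible positions. The median distance to the nearest start was 1683.5 bp.

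The members were spread over all large chromosome arms. X held 399, 3R held 397, 3L held 391, 2R held 310, 2L held 287 and chromosome 4 held 2. Per Mb of eligible sequence X held 82.4 (74.5 to 90.9), 3L 78.2 (70.7 to 86.4), 3R 71.1 (64.3 to 78.5), 2R 70.9 (63.3 to 79.3) and 2L 64.6 (57.3 to 72.5). Chromosome 4 held 6.33 (0.767 to 22.9). The intervals of neighbouring arms in this order overlap, those of X and 2L do not, and that of chromosome 4 lies below all others. On X both replicates held 56.4% of members, against 46.7% on 2L.

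The rule's limits cut through a continuous range of distances. Just inside the lower limit, 1 bp beyond it, lay peaks in bark with a signal value of 284 and in CG12910 with 106, and just outside it, at 500 bp, lay peaks in CG5445 and Fim with 178 and in loco with 148. Just inside the upper limit lay a peak in tara at 5000 bp with 280 and one in cv-c at 4991 bp with 108. Just outside lay a peak in CG6051 at 5006 bp with 70.1 and one in NetB at 5017 bp with 137. Of all 94687 candidate peaks of the ranked combined list, 7.80% had passed an irreproducible discovery rate of 0.01, and of the 21959 candidates that met the position rule 1826 had (8.32%, 7.95 to 8.69). The share was 17.0% within 500 bp of a start, 6.52% in introns beyond 5000 bp and 1.04% in exons. Of the 1826, 40 are not in the thresholded list used and were not analysed here.

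The members lay in 1121 genes, of which 1089 were protein-coding. These are 12% of the 9101 protein-coding genes that have any eligible intron sequence; in replicate 1 the share was 9.64% and in replicate 2 it was 8.57%, and 680 protein-coding genes were hosts in all 3 lists. More than 1 member was found in 404 of the 1089. The most were in Tlk and in lncRNA:CR44357, with 13 each, followed by CG1677 with 12, which lies inside lncRNA:CR44357 and shares all its members with it. CHES-1-like, which encodes a forkhead factor, and CG32264 had 11 each. The 11 of CHES-1-like lay within 14.7 kb of eligible sequence and ran from 45.1 to 708, and both replicates held 9 of them. The 13 of Tlk ran from 8.06 to 1242 over 34.6 kb, and both replicates held 7. Those of CG1677 ran from 102 to 583 over 58.1 kb, and both replicates held all 12.

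Members were close to other peaks of the list. The nearest other summit was a median of 1821 bp away (quartiles 785.5 and 4318), against 2218 bp for intergenic peaks up to 5000 bp from a start, 2745 bp for peaks within 500 bp of a start and 3253 bp for intronic peaks beyond 5000 bp. In 571 members (32.0%) it was within 1000 bp, as it was for 31.1% of those intergenic peaks, and in 1408 (78.8%) within 5000 bp.

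Host genes also carried a peak at their own start more often than other genes did. A summit within 500 bp of one of the gene's own starts was present in 614 of the 1089 protein-coding hosts (56.4%, 53.4 to 59.4) and in 2023 of the 8012 genes that had eligible intron and no member (25.2%, 24.3 to 26.2). Hosts have longer introns and more starts: the median eligible sequence was 6069 bp in hosts and 351.5 bp in the others, and the median number of distinct starts was 2 and 1. Among genes with 2000 to 5000 bp of eligible sequence the shares were 55.3% of 295 hosts and 27.3% of 993 others, and with more than 20000 bp they were 69.8% of 129 and 33.0% of 91. Among genes with 1 start they were 43.1% of 401 and 20.3% of 5643.

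Host genes included many developmental regulators, in numbers that varied by list. Genes differ in how much eligible intron they have, so each list is given as the number of hosts among its genes with eligible intron, to be read against 12% of all genes, and as members per Mb of eligible sequence, to be read against 73.9 over all protein-coding genes. The receptor tyrosine kinase list had 11 hosts of 21 (52.4%, 29.8 to 74.3) and 186 members per Mb, the highest density of the lists. Of its 29 members, 7 were in pnt, of which both replicates held 2, and 5 were in Raf, of which both held 4. In it, Raf had the peak of 817 described above. The peak in aos, which encodes the secreted inhibitor Argos of the EGF receptor, had a combined value of 604 and 312 and 289 in replicates 1 and 2. That in InR, the insulin receptor, had 389, 218 and 170.

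Lists for growth control and the dorsoventral axis came next by density. The Hippo and insulin list had 8 hosts of 22 and 160 per Mb, and besides InR its strongest members were in ex (Expanded, an upstream activator of Hippo signalling) with a combined value of 268 and 159 and 109 in replicates 1 and 2, and in mats, which encodes a cofactor of the kinase Warts, with 247, 139 and 108. The dorsoventral and Dpp list had 9 hosts of 17 (52.9%, 27.8 to 77.0) and 139 per Mb. Its strongest members were in shn, which encodes the zinc finger protein Schnurri of Dpp signalling, with 499, 270 and 232, and in Mad, the SMAD that Dpp signalling activates, with 473, 263 and 211. In ush, which encodes a cofactor of GATA factors, 6 members had values up to 393, and both replicates held 5 of them.

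Notch signalling, cell adhesion and ecdysone genes were also above 12% by share of hosts, a comparison not matched for eligible intron. The Notch list had 5 hosts of 11 (3 in replicate 2's own list) and 116 per Mb, led by neur (a ubiquitin ligase that acts on Notch ligands) with a combined value of 492 and 256 and 228 in replicates 1 and 2 and by mam (the coactivator Mastermind) with 462, 246 and 217. The epithelial polarity and adhesion list had 13 of 27 and 115 per Mb, led by cno (the afadin Canoe) with 631, 349 and 291. The ecdysone list had 12 of 18 (66.7%, 41.0 to 86.7), the highest share, but 83.6 members per Mb, close to the 73.9 of all genes. Its strongest members were in ImpL2, which encodes a secreted antagonist of insulin-like peptides, with 757, 442 and 304, in Eip63E, a cyclin-dependent kinase gene, with 590, 350 and 231, and in the nuclear receptor gene Hr4, with 582, 339 and 238.

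The lists for terminal, endoderm, gap and pair-rule genes were small, and their shares of hosts could not be told from 12%, again not matched for eligible intron. In the terminal list 3 of 10 genes were hosts, at 78.4 per Mb: Ptp61F, which encodes a tyrosine phosphatase, with a combined value of 219 and 138 and 75.8 in replicates 1 and 2, bowl, a zinc finger gene of the developing gut, with 194, 87.3 and 111, and tsl, which encodes the Torso pathway protein Torso-like, with 179, 110 and 65.4. The endoderm and midgut list had 2 of 11, at 30.9 per Mb, and its strongest member was in GATAd with 153; each replicate's own list had 1 host. The gap and maternal list had 1 of 10, cnc, at 108 per Mb, and the pair-rule list had 1 of 7 at 112 per Mb, the nuclear receptor gene ftz-f1 with 253, 137 and 111. With 7 to 11 genes a list, the intervals of these shares reach from as low as 0.253% to as high as 65.2% and take in 12% in each case.

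Other lists covered later development, signalling and chromatin, and 2 were of genes with little eligible intron. Segment polarity genes had 8 hosts of 20 and 82.5 members per Mb, led by arr (a Wnt co-receptor) with 262 in the combined list. Homeotic genes and cofactors had 5 of 12 (3 in replicate 2's own list) and 62.9 per Mb, with Antp at 212 and hth at 128. The mesoderm list had 8 of 22 and 83.1 per Mb, led by kirre, which encodes a cell adhesion protein of myoblast fusion, with 458. The salivary gland and trachea list had 7 of 17 and 72.8 per Mb. In it, sima, the fly homologue of HIF, was at 490, and grh (the Grainyhead factor of epidermis, also in the neural list) at 367. Neural genes had 6 of 21 and 45.8 per Mb, with the translational repressor gene brat at 652 and elav at 196. JAK/STAT genes had 3 of 9 and 80.1 per Mb, with Stat92E at 235. Axon guidance genes had 11 of 32 but only 49.7 members per Mb. They had 6 hosts in replicate 2's own list against 11 in that of replicate 1. Polycomb and trithorax genes had 5 of 25 and 96.3 per Mb, including the Trl peak of 1243. Ribosomal protein genes had 0 hosts of 27 (upper bound 12.8%), with only 0.00534 Mb of eligible sequence in all. Chemoreceptor genes had 0 of 133 (upper bound 2.74%), with 0.0586 Mb.

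Summits were poorer in G and C than the sequence around them, as in the printed sequences. Windows of 50 bp to either side of the summit had a median GC content of 32.7% (quartiles 27.7 and 40.6). Windows 500 bp to either side had 40.6%, and windows tiled over all eligible intron sequence outside peaks had 39.6%. Flank windows, here and for the motifs below, were not held to the position rule and can lie in exons or near starts. Of the members, 467 lay within 1000 bp of a start. The window was below the mean of its own flanks in 1276 members (71.4%). A run of at least 8 bases of A and T was present in 74.4% of summit windows (72.3 to 76.4), in 54.9% of flank windows and in 60.2% of tiled windows. Intronic peaks beyond 5000 bp and intergenic peaks up to 5000 bp from a start had medians of 31.7% and 32.7%, and peaks within 500 bp of a start had 37.6%, so the low GC content was shared with the other intronic and the intergenic class. Exonic peaks over 500 bp from a start had a median of 41.6%, against 41.1% in their flanks.

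The dip in GC content was deepest at the strongest members. Medians over the quintiles from strongest to weakest were 29.7%, 29.7%, 32.7%, 34.7% and 40.6%, while those of the flanks stayed between 40.1% and 42.1%. Summit windows were below their flanks in 86.6% of the strongest quintile and in 51.1% of the weakest. Among the 261 weakest members that overlapped no stronger peak the median was 39.6%. In mean profiles of 20 bp bins, the strongest quintile reached 29.1% at the summit and stood at 45.6% 120 bp to the left and 43.7% 120 bp to the right of it, so the core was narrow. The weakest quintile had 38.8% at the summit.

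**Figure D5:**
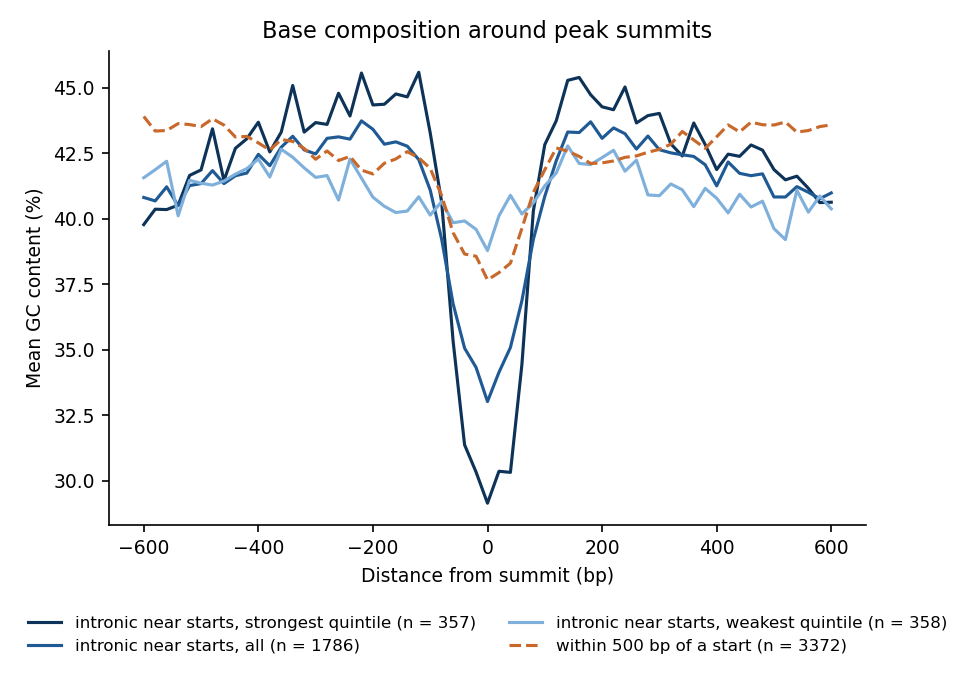
Mean GC content in 20 bp bins (vertical axis, %; the axis does not start at 0) by distance from the summit in bp (horizontal axis), for all members, their strongest and weakest quintiles, and peaks within 500 bp of a start. The strongest quintile falls to 29.1% at the summit, all members to 33.0%, peaks near starts to 37.7% and the weakest quintile to 38.8%.

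Motifs were sought in the same summit windows on both strands and counted once per window, beside the same count in flank windows and in all tiled windows of the same length. A match is a description of letters and no evidence of a bound factor. None of the motifs named here contains another, but matches to CCGCCC can share bases with those to CACGCCC or to CACACCC. The letters CACGCCC, the core published for the zinc fingers of Huckebein, were in 11 of 1786 summit windows (0.616%), in 1.29% of flank windows and in 1.32% of tiled windows. CCGCCC, a box of Sp and Kruppel-like factors, was in 1.34%, 3.95% and 3.18% of the 3 kinds of window. Weighting the tiled windows to the GC content of the summits lowered their shares to 0.823% for CACGCCC and 1.87% for CCGCCC. These were above the summit shares but inside their intervals (0.308 to 1.10 and 0.863 to 1.99), so a difference could not be told. CACACCC, a box of Kruppel-like factors, was in 1.01% of summit windows (0.598 to 1.59), 1.71% of flank windows and 1.17% of tiled windows. In weighted tiles it was in 0.756%, so that its direction turned, but this share lay inside the summit interval. Among members of X, 2L, 3L and 3R held by both replicates, the strongest 2 with CACGCCC are shown here with the match in capitals. They lie in Socs36E, a gene for a suppressor of JAK/STAT signalling, and in introns shared by CG46307 and Nhe2.
Socs36E, 2L:18149076-18149106, reverse strand match: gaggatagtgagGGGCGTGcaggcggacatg
CG46307 and Nhe2, 2L:21109052-21109082: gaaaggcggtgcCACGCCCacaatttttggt
Their combined signal values were 214 and 149, and the matches lay 47 and 9 bp from the summits.

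The Fork head core TGTTTAC was more frequent at summits than in flank, tiled or weighted tiled windows. It was in 82 windows (4.59%, 3.67 to 5.67), in 2.58% (2.08 to 3.15) of flank windows, in 2.38% of tiled windows and in 2.60% of tiled windows weighted to the GC content of the summits. Intronic peaks beyond 5000 bp had 4.97%, peaks within 500 bp of a start had 3.59% and intergenic peaks up to 5000 bp from a start had 1.70% (0.852 to 3.02). The share among members was 5.04% in the strongest quintile and 4.19% in the weakest. The strongest examples on X, 2L, 3L and 3R are in Trl and CG9663, both on the reverse strand.
Trl, 3L:14759465-14759495: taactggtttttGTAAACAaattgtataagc
CG9663, 2L:3302169-3302199: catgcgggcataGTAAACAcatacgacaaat
The match lay 45 bp from the summit in Trl and 3 bp from it in CG9663. CATATG, an E-box of the Twist type, was in 5.15% of summit windows (4.17 to 6.28), 4.03% of flank windows (3.41 to 4.73) and 3.63% of weighted tiles. The intervals of summits and flanks overlapped. The ratio of summits to flanks was 1.28 in the combined list, 1 in replicate 1's own list and 1.13 in that of replicate 2.

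For some other motifs the direction differed between the backgrounds. GAGAG, bound by the GAGA factor, was in 10.9% of summit windows (9.46 to 12.4), 15.4% of flank windows, 11.0% of tiled windows and 8.53% of weighted tiles. The summit share was thus below the flanks, close to the plain tiles and above the weighted tiles. It was 7.56% in the strongest quintile and 15.9% in the weakest. The homeodomain core TAATTA was above the flanks and below the weighted tiles, but its weighted share lay inside the summit interval. It was in 10.02% of summit windows (8.67 to 11.5), 6.27% of flank windows and 11.0% of weighted tiles. The GATA core GATAA was in 24.9%, 20.1% and 23.1%. TATCGATA of DREF was in 1 member window and GGTCACACT of M1BP in 0 of 1786 (upper bound 0.206%), while 1.60% and 1.04% of peaks within 500 bp of a start had them. Of 1329 hexamers present in at least 40 summit and 40 flank windows, TTATAA had the highest ratio of summits to flanks, in 10.9% of summit windows and 4.28% of flank windows, but weighted tiles had 9.64%. AGTGTA was in 7.33%, 3.58% and 4.35%.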

How the data were processed

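Peak lists of 2 biological replicates on the dm6 assembly were used, per the labels. The signal value is a score the authors deposited for each peak, whose unit is not stated, used only to describe and rank peaks of a list. The ranked lists also carry a −log10 value of the irreproducible discovery rate (IDR) that the authors deposited, and thresholded peaks have at least 2, an IDR of at most 0.01. Neither aligner nor peak caller is named (not given in the sources used here). Read totals are not in the lists, so depth is unknown.

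Summits were placed on Ensembl release 115 (18164 genes and 35497 transcripts after transposable elements were removed). Eligible sequence is every base inside a gene, in no exon and over 500 and up to 5000 bp from the nearest start. A replicate's value for a peak is that of its strongest overlapping thresholded peak. Windows held 50 bp to either side of the summit, with flanks centred 500 bp to either side, and sequences were read from the RefSeq Release 6 assembly. The lists of genes and the 21 motifs, and the members themselves, were chosen with earlier results of these data known. Of the listed symbols, those that the annotation lacks were dropped. Named genes are hosts of the 20 strongest members held by both replicates, up to 3 such hosts per list, the hosts with the most members, and peaks next to the distance limits; 1 such host is not reported here. Further genes were named after their values were seen: those of members held by 1 or neither replicate, pnt and schlank. Socs36E, CG46307 and Nhe2 are hosts of the strongest members of X, 2L, 3L and 3R with a motif discussed. Replicate numbers are the labels' own. Position classes, overlaps and motif matching were tested on simulated data. Python 3.11.15, numpy 2.4.6, pandas 2.3.3 and scipy 1.17.1 were used. The alternatives were other lists, distances, starts, overlaps and windows.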

Additional observations from a re-analysis of the deposited data

How the results depend on the processing

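The median GC content, the position of members and the agreement of replicates kept their direction under the alternatives run for them. Left to 1 replicate's own list, the number of members ranged from 1119 to 1296, their share of the list from 24.6% to 25.7%, the density ratio of the first 500 bp of the range against the last 1000 bp from 2.33 to 2.40 (2.14 in the combined list), the share with a host start nearest from 78.2% to 79.8%, the share in first introns from 75.5% to 77.3%, the share of genes that are hosts from 8.57% to 9.64% and the median GC content from 30.7% to 31.7%. In the stronger 50% of the list there were 957 members, 26.5% of the peaks; 84.5% of them had support in both replicates and 0.940% in neither, the density ratio was 2.28, 79.3% had a host start nearest, 76.3% were in a first intron, 7.90% of genes were hosts and the median GC content was 30.7%. Starts of protein-coding transcripts alone gave a share of 23.7% and a host start nearest in 85.6%. Limits of 1000 to 5000 bp gave 18.3% of the peaks, 47.5% held by both, 23.3% by neither and a median signal of 108, and limits of 500 to 2500 bp gave 17.1% of the peaks. Overlap of 50% of both peaks gave 40.1% held by both and 27.6% by neither, and summits within 100 bp gave 48.1% and 25.1%. Over candidates of the ranked lists the Spearman correlation was 0.784. Counting only members in the first intron of every spanning transcript gave 46.6%. Windows of 25 and 100 bp to either side gave median GC contents of 31.4% and 35.8%. Without members that overlap a stronger peak, an alternative chosen after seeing the data, the median signal was 118. Tiled windows weighted to the members' GC content, also chosen after seeing the data, turned the direction for GAGAG (ratio 1.27), TAATTA (0.910), CACACACA (1.27), CACACCC (1.33) and TTCNNNGAA (0.869). For all of these but GAGAG, the weighted share lay inside the interval of the summit share. No paired analysis was possible because there is 1 group. Depth is unknown, no control was used here, and 2 libraries give only a rough estimate of spread.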
